A study of Argopecten irradians with 2 samples.

Results

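In the gills of bay scallops (Argopecten irradians), 69 singleton unigenes were at least 4-fold lower in the library of scallops exposed to okadaic acid (OA) than in the control library. A unigene is a transcript sequence assembled from the reads without a genome. A singleton is a unigene that the assembly did not group with similar sequences, and the other kind, a contig, belongs to a cluster of similar sequences. The 69 members were chosen from 42835 singletons among 59688 unigenes by their values in the 2 libraries. This total counts every ID listed for either library and is larger than the number of unigenes that the study reports. A member had an expected count, that is an estimated number of fragments, of at least 10 in each library and of at least 100 in both together. Its FPKM (fragments per kilobase of transcript, scaled to the number of mapped fragments) in the OA-exposed library was at most 0.25 of that in the control library. Its mean FPKM was under 100 and its length under 10000 bp. Because these values chose the members, the ratios below are a description of them and were not tested.

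The OA-exposed scallops had been held for 48 h in sea water with 500 nM OA, and the control scallops in sea water with the solvent DMSO alone. Each condition gave 1 library of gill RNA, described for the series as a pool of 18 scallops, although the methods of the study describe smaller pools for each tank. With 1 library per condition the differences have no replicate check, and a difference between the conditions and a difference between these pools cannot be told apart. In such bulk RNA, fewer cells of a type and less RNA per cell cannot be told apart either.

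OA is a toxin of dinoflagellates that accumulates in filter-feeding shellfish and inhibits serine/threonine protein phosphatases, the enzymes that remove phosphate groups from proteins and so switch off many kinase signals. The bivalve gill is a ciliated sheet that filters food particles from the water, exchanges gases and is among the first tissues to meet a dissolved toxin. Unigenes appear in the files under assembly IDs, and neither gene names nor sequences stand beside them. The IDs are labels of this assembly, and none occurred in a RefSeq annotation table of the species (0 of 59688 matched). The study annotated part of its unigenes, but that annotation was not at hand here. No member could thus be given a gene name or a function, and marker genes of the gill could not be looked up. The members are therefore described by length, level and number of reads, and those with the lowest ratios by ID.

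The filters decide which singletons could become members. Of the singletons, 14528 had at least 10 fragments in each library, 7647 of these had at least 100 in both together, and 7302 were also under the ceilings on level and length. Among these 7302 singletons the 69 members were 0.945%. The same filters with a ratio of 4 or more gave 90 raised singletons, or 1.23%. Contigs of clusters passed the filters in 7926 cases, of which 135 (1.70%) were lowered and 184 (2.32%) raised. Lowered unigenes were thus fewer than raised ones among singletons and contigs alike, but with the libraries scaled by the trimmed mean of M-values (TMM), which shifts every log2 ratio by -0.10, they were more, with 88 lowered and 67 raised singletons and 174 lowered and 148 raised contigs. On both scales 4-fold differences made up a larger share of the contigs than of the singletons. Over all singletons past the filters the median ratio was 1.13, with 3018 lower and 4282 higher in the OA-exposed library, so that the members lay in the lower tail of a distribution whose centre was somewhat above 1. Their own median ratio was 0.204, a log2 ratio of -2.29, against 0.17 for all 7302.

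**Figure D1:**
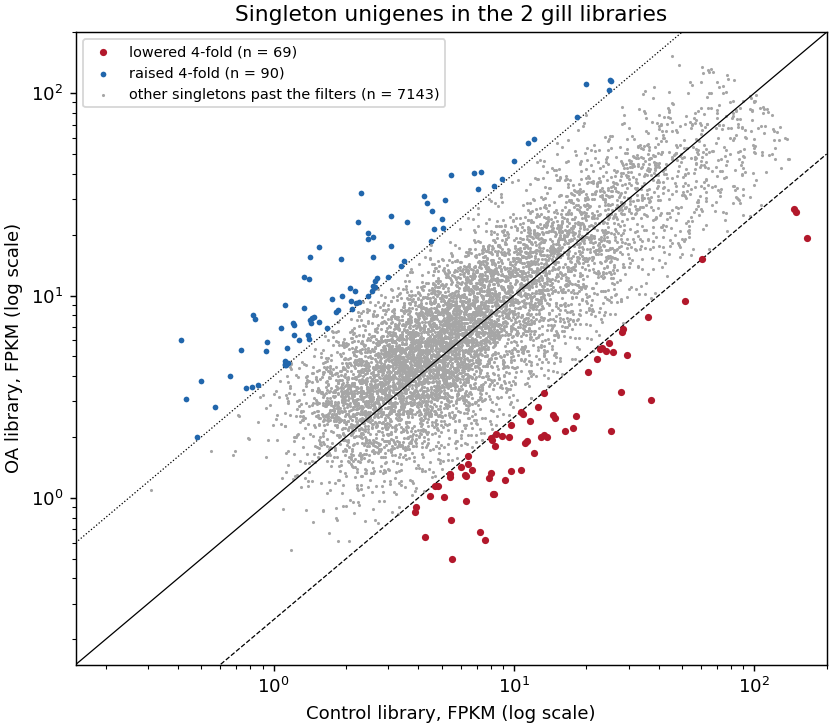
FPKM of each singleton past the filters in the OA-exposed library (vertical, log scale) against the control library (horizontal, log scale). The solid line marks equal levels, the dashed line a ratio of 0.25 and the dotted line a ratio of 4, and the 69 lowered singletons lie on or under the dashed line across the range of control levels from 3.88 to 165.42 FPKM.

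The minimum in the OA-exposed library removed further lowered singletons with few or no fragments there. With at least 100 fragments in both libraries together, another 14 singletons under the ceilings had ratios of at most 0.25 but at most 9 fragments in the OA-exposed library, and 3 of them had none there. Their control counts lay between 95 and 482.65, with a median of 117. In the opposite direction, 11 singletons with ratios of at least 4 were left out by the same minimum in the control library. A further 40 lowered singletons had at least 10 fragments in each library but under 100 in both together. The ceilings removed 1 lowered singleton, of 742 bp, which had 85.44 FPKM in the OA-exposed library and 398.39 FPKM in the control library, a ratio of 0.214.

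The lowest ratio belonged to Unigene1331_All, a singleton of 762 bp. It had 25 fragments and 3.05 FPKM in the OA-exposed library, against 306 fragments and 37.29 FPKM in the control library. This is a 12.2-fold lower level, with a log2 ratio of -3.61 and an exact 95% counting interval of -4.27 to -3.03. The interval covers the counting of fragments only, not the variation between pools of scallops.

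Next to it stood Unigene17396_All, which is 2284 bp long and had 16.07 fragments and 0.62 FPKM in the OA-exposed library, against 195.04 fragments and 7.56 FPKM in the control library. Its log2 ratio was likewise -3.61, with an interval of -4.45 to -2.88. Its expected counts are not whole numbers, which marks reads divided between unigenes, and the interval leaves out the uncertainty of that division. The ratios of these 2 singletons were nearly equal although their control levels differed 4.9-fold, and their intervals overlapped almost completely, so that their order cannot be read from these reads.

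Another 3 members had a level under 0.1 of that in the control library. A singleton of 1564 bp had 2.14 FPKM in the OA-exposed library and 25.29 FPKM in the control library. One of 4015 bp had 0.5 and 5.52 FPKM in the OA-exposed and control libraries, and one of 1446 bp had 0.68 and 7.2 FPKM in the same order. The last of these rested on 11 fragments in the OA-exposed library, the fewest of any member, and its interval was the widest of the 69, with ratios of 0.0457 to 0.175. All 5 members under 0.1 kept an upper bound of the ratio under 0.25.

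Of the other members, 14 had ratios of 0.1 to 0.15, 14 of 0.15 to 0.2, and 36 of 0.2 to 0.25. The members of the 0.1 to 0.15 band had 0.64 to 19.2 FPKM in the OA-exposed library, with a median of 1.52, and 4.27 to 165.42 FPKM in the control library, with a median of 11.4. Those of the 0.2 to 0.25 band had 0.85 to 15.11 FPKM in the OA-exposed library, with a median of 2.05, and 3.88 to 60.84 FPKM in the control library, with a median of 9.23. The control levels of the bands thus overlapped over most of their range.

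The members nearest the threshold and the singletons just beyond it had almost the same ratios. Just inside were singletons of 732 bp and 1443 bp, with ratios of 0.2498 and 0.2488. Just outside were singletons of 1543 bp and 650 bp, with ratios of 0.2506 and 0.2519. The first of the outer pair had 92 fragments in the OA-exposed library and 366 in the control library. Its inner neighbour had 21 and 84 fragments in the same order. They differed in depth more than in ratio, but both were picked for ratios nearest the threshold.

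Across all 69 members, the level in the OA-exposed library ran from 0.5 to 26.81 FPKM, with a median of 1.99, and in the control library from 3.88 to 165.42 FPKM, with a median of 10.7. In the OA-exposed library 65 members were under 10 FPKM, against 33 in the control library. No member was under 1 FPKM in the control library, but 8 were under it in the OA-exposed library, where the FPKM are deposited in steps of 0.01 and so carry a rounding error of their own. The members together had 3847 fragments in the OA-exposed library, 0.0331% of its total, and 21342 fragments in the control library, 0.185% of its total.

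A few abundant members stood apart from the rest. In the control library 3 members exceeded 100 FPKM. The singleton with the highest mean level, 1103 bp long, had 19.2 FPKM and 233.62 fragments in the OA-exposed library and 165.42 FPKM and 2009.67 fragments in the control library. The singleton with the most reads, 1597 bp long, had 26.01 FPKM and 466 fragments in the OA-exposed library and 149.81 FPKM and 2676 fragments in the control library. The other of these 3, of 1323 bp, had 26.81 FPKM and 395 fragments in the OA-exposed library and 146.12 FPKM and 2147 fragments in the control library.

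These 3 singletons held 28.5% of the members' fragments in the OA-exposed library and 32.0% in the control library. Their ratios were 0.116, 0.174 and 0.183, with 95% counting intervals of 0.1 to 0.132, 0.156 to 0.191 and 0.164 to 0.203. They are the 3 members with the most reads in both libraries together, and none of their intervals reached 0.25. The singleton of 1103 bp had the lowest ratio of the 3, and its interval did not overlap those of the other 2. Its expected counts are not whole numbers, which marks reads that were divided between unigenes.

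The depth of reads sets how well each ratio is known. The expected counts of the members had a median of 26.8 fragments in the OA-exposed library and 152 in the control library, out of library totals of 11607306 and 11522064 fragments in that order. In the OA-exposed library 40 members had under 30 fragments and 11 had under 20, and 6 had at least 100. For 27 members the upper bound of the counting interval was at or under 0.25, and for the other 42 it was higher. The highest upper bound was 0.404. The rule limits these bounds, since it asks for a low ratio and at least 100 fragments, so that they describe the depth and are no support for the lowering. The width of the interval on the log2 scale ran from 0.29 to 1.93, with a median of 1.28. All 19 members with ratios under 0.15 had upper bounds under 0.25, as did 8 of the 14 members at 0.15 to 0.2 and 0 of the 36 at 0.2 to 0.25.

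**Figure D2:**
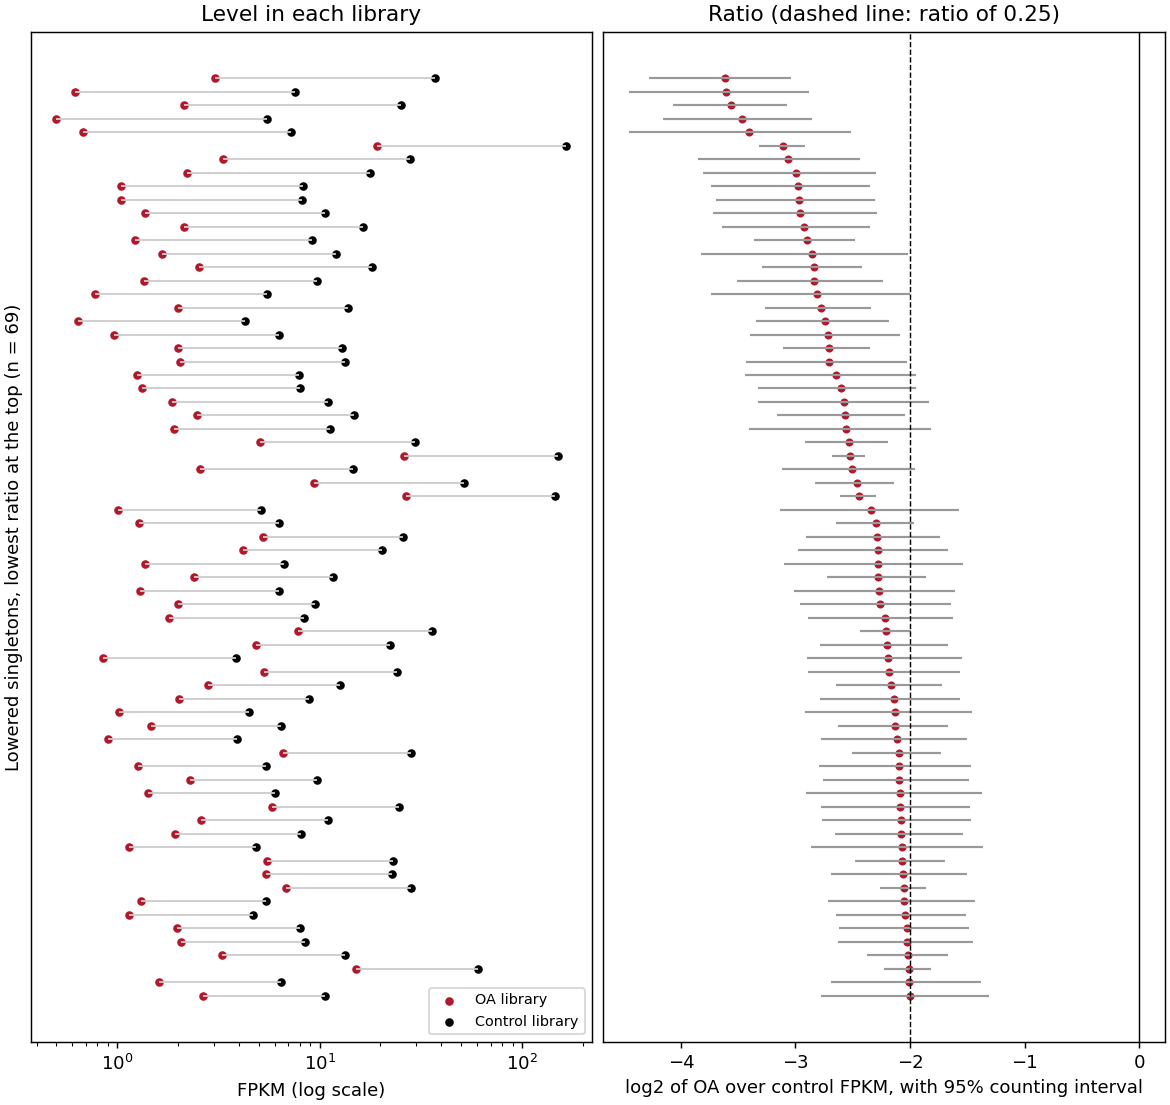
Each of the 69 lowered singletons on a line of its own, ordered by ratio with the lowest at the top. The left panel gives the FPKM in the OA-exposed library (red) and in the control library (black) on a log scale, and the right panel the log2 ratio with its 95% counting interval (grey bar). The upper ends of 27 bars lie at or left of the dashed line at a ratio of 0.25, and the solid line at 0 marks equal levels.

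The members were short beside the other singletons past the filters, but not beside the whole assembly. The mean length that the study reports over all its unigenes is below the members' lower quartile. Their median length was 1443 bp, with quartiles of 1038 and 1824 bp, whereas all singletons past the filters had a median of 2087.5 bp (quartiles 1403 and 3016 bp) and the 90 raised singletons a median of 2401 bp (quartiles 1359 and 3534 bp). Of the members, 55 of 69 (79.7%) were shorter than 2087.5 bp, against 40 of 90 raised singletons (44.4%). The shortest member, of 439 bp, had 5.85 FPKM in the OA-exposed library and 24.81 FPKM in the control library. The longest, of 5901 bp, had 1.29 and 6.33 FPKM in the same order, and its ratio of 0.204 was close to that of the shortest, 0.236. The rule used length only as a ceiling of 10000 bp.

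**Figure D3:**
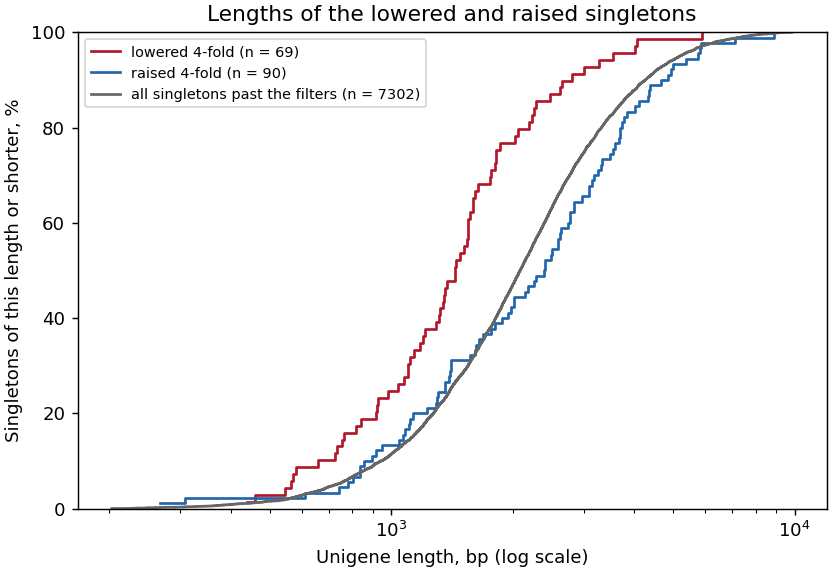
Cumulative share of singletons (vertical, %) by unigene length in bp (horizontal, log scale), for the 69 lowered singletons, the 90 raised singletons and all 7302 singletons past the filters. The line of the lowered singletons runs left of the others over most of its course and crosses 50% at 1443 bp, against 2401 bp for the raised ones.

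The share of singletons that were lowered differed by length class. Of the 392 singletons shorter than 750 bp, 9 (2.30%) were lowered and 4 (1.02%) raised. The class of 1000 to 1500 bp held 20 lowered and 16 raised of 1233 singletons, or 1.62% and 1.30%. From 2000 bp on, raised singletons were the more frequent. The class of 2000 to 3000 bp held 10 lowered (0.492%) and 21 raised (1.03%) of 2033 singletons. The class of 4000 bp and longer held 3 lowered (0.337%) and 15 raised (1.69%) of 890 singletons. Each of the last 3 of the 7 classes held fewer lowered than raised singletons, also with TMM. The size of the contrast depended on the scale and on few members, since with TMM the shortest class held 15 lowered singletons and the longest 3.

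The trend ran through all singletons past the filters. Their median ratio was 0.907 under 750 bp, 0.985 at 1000 to 1500 bp, 1.12 at 2000 to 3000 bp and 1.40 at 4000 bp and longer, and it increased from each class to the next. Over the 7302 singletons, length and ratio had a Spearman's rho of 0.226, and over the 7926 contigs 0.217. These correlations describe unigenes within the same 2 libraries, which are not independent replicates. Among the 69 members themselves rho was -0.03, within a range of ratios that the rule had cut. Contigs of clusters showed a like course of lowered shares, with 4.84% under 750 bp and 0.26% at 4000 bp and longer. The part of this library-wide trend with length in the members' ratios was not tested.

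When each ratio was divided by the median ratio of its length class, 62 of the 69 members stayed at or under 0.25. A further 20 singletons came in, so that 82 were lowered and 69 raised on that scale, and the median length of the lowered singletons was 1696 bp. The class medians span a narrow range beside a 4-fold difference, so that most members had to stay under the threshold, and this count says nothing of the part of the trend in their ratios.

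**Figure D4:**
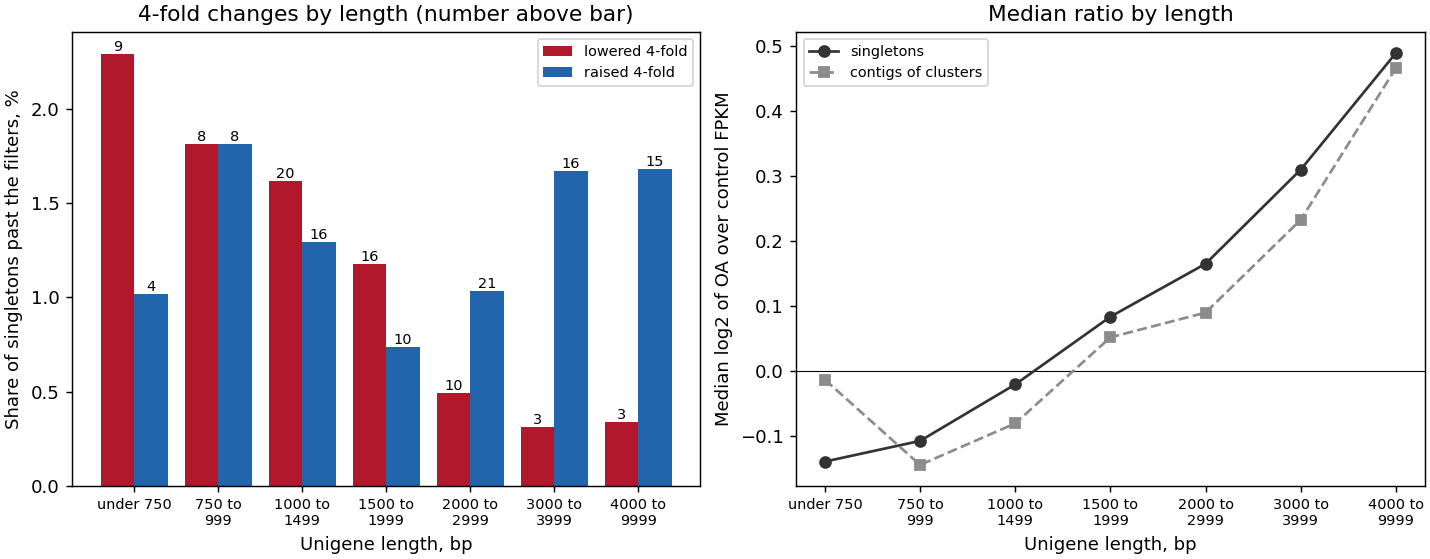
The left panel gives the percentage of singletons past the filters that were lowered (red) or raised (blue) 4-fold in each of 7 length classes in bp, with the number of singletons above each bar. The right panel gives the median log2 ratio of OA-exposed over control FPKM per class for singletons and for contigs of clusters. The lowered share is 2.30% in the shortest class and 0.337% in the longest, while the median log2 ratio of singletons is -0.14 in the shortest class and 0.49 in the longest.

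Length and depth go together, since a longer transcript yields more fragments, so lengths were compared within classes of reads. Among singletons with 100 to 150 fragments in both libraries together, the 24 members had a median length of 1281.5 bp, against 1588.5 bp for all 1666 singletons. With 200 to 400 fragments the 14 members had a median of 1596 bp, against 2140 bp for all 2011. With 1000 fragments and more the 6 members had a median of 1519.5 bp, against 3082 bp for all 1041. The members were the shorter ones in each of the 5 classes of reads. The raised singletons were also shorter than all singletons in the 2 classes with the fewest reads, at 1357 bp with 100 to 150 fragments and 1696 bp with 150 to 200, but longer in the 3 classes above.

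The lowered share also differed with the number of reads. It was 1.44% with 100 to 150 fragments, 1.61% with 150 to 200, 0.696% with 200 to 400, 0.523% with 400 to 1000 and 0.576% with 1000 and more. The raised share in the same classes was 1.32%, 0.57%, 1.24%, 1.63% and 1.15%. Contigs of clusters also had a smaller lowered share with more reads, from 3.19% with 100 to 150 fragments to 0.578% with 1000 and more. By mean FPKM the lowered share of singletons had no such course. It was 0.546% under 3 FPKM, 1.10% at 5 to 10 FPKM, 0.526% at 20 to 50 FPKM and 1.14% at 50 to 100 FPKM, the last from 3 members of 263 singletons. Members were thus found in each class of level, though none had a mean level under 2.365 FPKM, and more often among the singletons with few reads.

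Although singletons stand outside the clusters, some shared reads with other unigenes. Where a read fits several unigenes, the estimation divides it among them and the expected count need not be whole. Of the 69 members, 43 (62.3%) had whole expected counts in both libraries, to within 0.001, and 26 did not. Among all 7302 singletons past the filters 79.2% had whole counts, and among the raised singletons 62.2%. Seen from the other side, 1.71% of the 1522 singletons with divided reads were lowered, against 0.744% of the 5780 with whole counts, and 2.23% against 0.969% were raised. Divided reads therefore went with 4-fold differences in both directions.

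The members with divided reads had a median log2 ratio of -2.40, close to the -2.28 of those with whole counts. Their levels had a median of 1.83 FPKM in the OA-exposed library and 8.41 FPKM in the control library, and those of the members with whole counts 2.4 and 12.1 FPKM in the same order. Whether the reads of the 26 members were divided differently in the 2 libraries was not tested. The 43 with whole counts, Unigene1331_All among them, showed no divided reads and had ratios of 0.0818 to 0.2498.

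The IDs carry running numbers, the order of which is not explained in the sources used here. In parts of this numbering, singletons close in number had similar lengths, and the neighbours below were not matched for length. Most neighbours of the members in this numbering were not lowered. The 58 other singletons past the filters whose number differed by 1 from that of a member had a median log2 ratio of 0.26, against 0.17 for all. With numbers within 2, 5 or 10 of a member's the medians were 0.12, 0.12 and 0.14, so that the order relative to all singletons changed with the window. Among the 58 nearest, 12.1% had ratios of at most 0.5, against 9.57% of all. Within 2, 5 and 10 the shares were 13.1%, 12.4% and 11.3%, so that this share was above that of all singletons in each window. The values for all singletons include the members, whereas the neighbours leave them out, so the 2 sides are not fully alike. The wider windows include the narrower ones, and the difference was not tested. One pair of members had consecutive numbers, the singletons of 1564 bp and 1295 bp. Their ratios, 0.0846 and 0.227, differed, and both had divided reads.

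None of the 4 library scalings tried removed a member. Ratios from the expected counts over the library totals gave 71 lowered singletons, all 69 members among them, since the FPKM and count ratios of a member differed by at most 1.4%. With TMM 56.8% of the 4-fold differences among singletons were lowered, against 43.4% without it. With TMM 19 further singletons joined the 69 members. No member could leave, since TMM multiplied every ratio by 0.93 and the remaining factors multiplied it by 0.989. No factor tried shifted the ratios upward, so their retention says little of how firmly the members near the threshold are placed.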

How the data were processed

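Gill RNA of OA-exposed and control scallops, 1 library each, was grouped by the treatment in the labels. After filtering (SOAPnuke), assembly and clustering (Trinity, TGICL), mapping (Bowtie) and quantification (RSEM), the authors deposited the expected count of each unigene, which is not normalized, and its FPKM, which is relative to effective length and mapped fragments. An unlisted unigene was set to 0. The deposited table of the authors' own comparison (fold changes, p-values, calls) was not used.

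Ratios were taken from FPKM without a pseudocount. Intervals are Clopper-Pearson intervals (conditional binomial, 95%, scipy 1.17.1) of rounded expected counts, scaled by the library totals, and hold counting error alone. PCR copies of a molecule are counted too, so the intervals can be too narrow even for that error. No test was run, since edgeR and DESeq2 could not be fitted with 1 library per condition. Scaling factors came from edgeR 4.0.16 and DESeq2 1.42.0. The code for selection and intervals was run on simulated counts, without variation between pools or divided reads. The simulated differences were larger, and the reads more numerous, than those of most members. That run checks the code and not the members. By rule, the 2 members with the lowest ratio were named by ID, and the 2 on each side of the threshold, the longest, the shortest, the most abundant and the one with most reads were described. The others under a ratio of 0.1 or over 100 FPKM, and the pair with consecutive numbers, were chosen after their values were seen. The members and comparisons were chosen with earlier results of these data known.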

Additional observations from a re-analysis of the deposited data

How the results depend on the processing

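The number of lowered singletons depended on the thresholds and on depth. It was 33 (0.452% of singletons past the filters, with 44 raised at a ratio of at least 5) with a ratio threshold of 0.2 and 130 (1.78%, with 169 raised) with 0.3, and the median log2 ratios were -2.82 and -2.02. With at least 200 fragments in both libraries together it was 28 (0.611%, median length 1617.5 bp, with 62 raised, so that 31.1% of the 4-fold differences were lowered, against 43.4% as reported) and with at least 50 it was 109. With 1 FPKM added to both libraries it was 30 (0.411%, with 35 raised), since the added value brings the ratio of low unigenes closer to 1. TMM factors gave 1.21%. The next 2 alternatives were chosen after seeing the data. Dividing by the median ratio of the length class moved the median length to 1696 bp, and keeping only whole expected counts left 43 lowered and 56 raised singletons. The other alternatives, for the filters in each library, the ceilings, 0.1 FPKM added, the scale of the ratio and the remaining scaling factors, moved no count by over 1.5 times. Under all 4 scalings tried the named singletons stayed within their counting intervals. They had to, because the largest shift of the log2 ratio, -0.10 with TMM, is small beside these intervals. No paired analysis was possible because each condition has 1 library, and for the same reason no library could be left out.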
